A study of Mus musculus with 6 samples.

Results

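The 10 genes described here handle the removal of cholesterol from macrophages and its control by the liver X receptors (LXR). They are the receptors Nr1h3 and Nr1h2, the transporters Abca1 and Abcg1, the acceptor and transfer proteins Apoe and Pltp, and the lipid-modifying or regulatory targets Lpcat3, Scd2, Srebf1 and Mylip. They were chosen by gene symbol, and all 10 were found among the 15168 genes of the count table. All 10 also passed the filter on low counts, which left 11878 genes for testing. RNA came from macrophages of Day 3 wounds in the dorsal skin of female C57BL6/J wild-type mice, which carried 2 full-thickness wounds of 10 mm each. The cells were sorted as CD45+ CD11b+ F4/80+ CD64+, and the samples fall into 3 from young mice (12 weeks) and 3 from aged mice (24 months), named sets A, B and C within each age. Mice of both ages had isoflurane anaesthesia for wounding and buprenorphine against pain, and by their labels the groups differ in age. The comparison asks how the transcripts of these genes in wound macrophages differ between old and young animals.

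LXRα (Nr1h3) and LXRβ (Nr1h2) are nuclear receptors that bind oxysterols, the oxidised derivatives which accumulate when a cell is loaded with cholesterol. Bound with a retinoid X receptor to paired repeats in DNA, they switch on genes that export cholesterol to lipoproteins, remodel membrane phospholipids and reduce the uptake of lipoproteins. Macrophages that clear dead cells from a wound take up large amounts of membrane cholesterol, and in tissue macrophages this programme is a main route for disposing of it.

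Total expected counts ran from 15270103 to 17927483 per sample, and 1 count corresponded to between 0.0553 and 0.0701 CPM (counts relative to the library size, scaled by the TMM factors of edgeR). All levels below are in this CPM unless given per kb of exon. Tests are edgeR quasi-likelihood tests of aged against young samples, adjusted by the Benjamini-Hochberg method over all genes tested, and genes with an adjusted p under 0.05 are termed called. The labels do not say whether the 3 samples of an age came from separate animals, so p-values measure the spread between these samples, which may be technical. Macrophage markers were present in every sample, with all 8 of 8 genes of that list detected and a summed level of 5142 to 5319 CPM in young and 6009 to 6462 CPM in aged samples. Among them, Adgre1, the gene of F4/80, was called lower in the aged samples (log2 fold change -0.69), though not in edgeR without young B (adjusted p = 0.0900), young C (0.113), aged A (0.0751) or aged C (0.109). Itgam, the gene of CD11b, was called higher (log2 fold change 0.99), also in each of the 6 fits that left out 1 sample. Of 12 neutrophil markers 10 were in the table, and their sum was 479 to 766 CPM in young and 572 to 1171 CPM in aged samples. Elane, too low for the test, had 0 counts in the young samples and 6, 0 and 5 counts in aged samples A, B and C. Of the 9 tested, 4 were called higher (9.73% over all tested genes), with Ly6g, S100a8 and S100a9 not among them. None of these 4, Cxcr2, Lcn2, Retnlg and Cd177, was called in edgeR without young C (adjusted p = 0.143, 0.100, 0.127 and 0.0549). Among the other 5 such fits Cd177 was called in each, Cxcr2 without young B (0.0429) or aged B (0.0118), and Lcn2 and Retnlg without aged B alone (0.0138 and 0.0114). Markers of other cells were low throughout, with sums of at most 119 CPM for fibroblasts, 93.8 CPM for dendritic cells, 30.6 CPM for endothelial cells, 22.1 CPM for adipocytes and 3.50 CPM for T and B cells. The 5 monocyte markers summed to 541 to 944 CPM in young and 567 to 1084 CPM in aged samples, and of these Vcan was called higher (29.2 ± 7.69 to 128 ± 26.5 CPM, log2 fold change 2.13), as was Pecam1 of the 5 endothelial markers (8.03 ± 1.82 to 25.9 ± 2.08 CPM, log2 fold change 1.69), both also in each of the 6 fits that left out 1 sample. Keratinocyte markers, 5 of 6 in the table, summed to between 0.587 and 0.727 CPM in young and between 1.67 and 112 CPM in aged samples, with the highest sum in aged sample B, which also had the highest fibroblast sum. Of these markers Krt14 was called higher (edgeR adjusted p = 0.0259), with 0, 3 and 1 counts in young samples A, B and C and 11, 1259 and 14 counts in aged samples A, B and C, a call lost without young B (0.0925) or young C (0.111). What part these other transcripts have in the results below was not tested.

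In the aged samples 3 of the 10 genes fell, 1 rose and 6 were not called. The genes that fell were Apoe, Pltp and Scd2, each by about the same amount, while Lpcat3 rose and Abca1, Abcg1, Nr1h2, Nr1h3, Mylip and Srebf1 did not pass the test. Over all tested genes the share called was 17.7%, with 9.73% higher and 7.97% lower in aged samples. The median log2 fold change over the 10 genes was -0.13, beside -0.02 over all tested genes. That median was -0.05 without young A, -0.04 without aged C, -0.20 with upper-quartile factors and -0.31 with libraries scaled by their totals alone. When each sample was left out in turn, the number that fell was 0 without young B, young C or aged C, where 2.71%, 0.548% and 1.58% of all tested genes were called lower. It was 2 without aged A or aged B (4.26% and 4.98% of all genes) and 3 without young A (9.29%). The number that rose was 2 without young A, where 1574 of all tested genes were called higher. Without any other single sample it was 0, where 151 to 894 of all tested genes were called higher. Levels in aged and young samples did not overlap for 5 of the 10 genes, and over all tested genes the share without overlap was 38.2%. In these bulk samples, fewer cells of a type and less RNA per cell cannot be told apart.

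**Figure D1:**
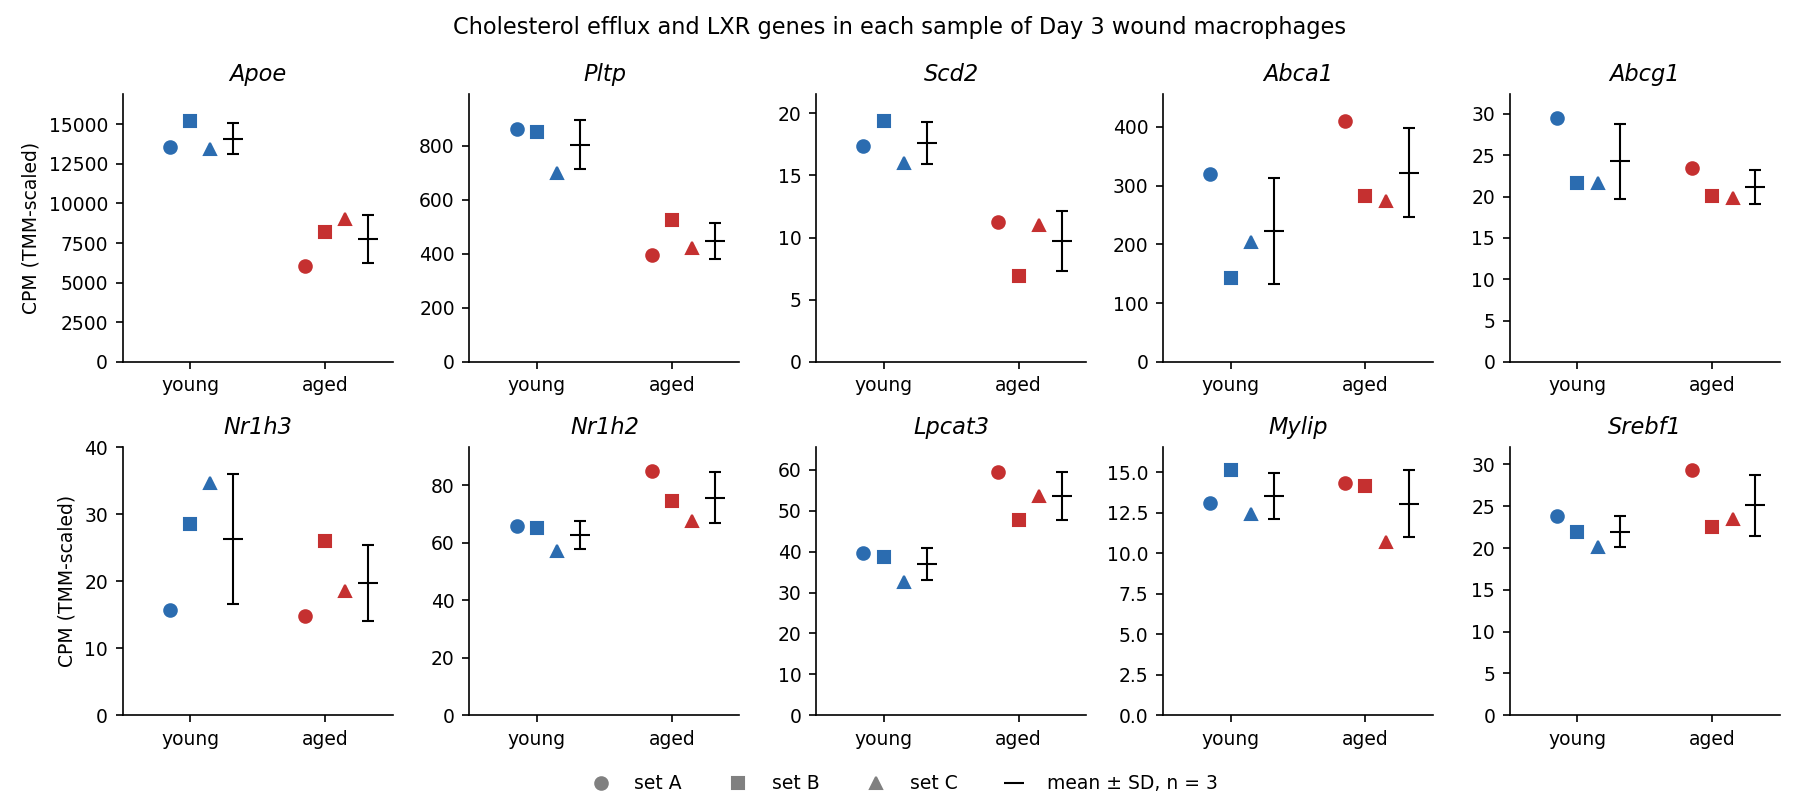
Level of each of the 10 genes in every sample, in CPM on axes that start at 0. Blue points are young and red points aged samples, shapes mark the sets A, B and C, and bars are mean ± SD (n = 3). Apoe, Pltp and Scd2 lie lower in all 3 aged than in all 3 young samples, and Lpcat3 and Nr1h2 lie higher.

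Apoe encodes apolipoprotein E, which macrophages secrete and which accepts cholesterol leaving the cell. The gene lies on the minus strand at chr7:19696109-19699189 (mm10). Its levels were 13567, 15219 and 13457 CPM in young samples A, B and C, and 6079, 8190 and 9044 CPM in aged samples A, B and C. Every aged sample lay below every young sample, and aged sample A was the lowest. The mean fell from 14081 ± 987 CPM (SD, n = 3) in young to 7771 ± 1526 CPM in aged samples, equal to -0.86 as a log2 fold change (standard error 0.21, 95% interval -1.33 to -0.39, edgeR adjusted p = 0.0244), so that the young level was 1.81 times the aged level. Apoe was among the most abundant transcripts of these cells, ranking 4, 6 and 7 among all genes in the young samples and 15, 13 and 13 in the aged samples. It made up 1.51%, 1.66% and 1.33% of all counts in the young libraries and 0.568%, 0.804% and 0.817% in the aged libraries. The call was lost in edgeR when young B (adjusted p = 0.0848), young C (0.0820), aged A (0.0588) or aged C (0.0639) was left out, and over all 6 leave-one-out fits the log2 fold change lay between -0.98 and -0.71.

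Pltp encodes the phospholipid transfer protein, which moves phospholipids between lipoproteins and helps to form particles that can take up cholesterol. It lies on the minus strand at chr2:164839518-164857712. Young samples A, B and C held 862, 849 and 699 CPM, and aged samples A, B and C held 397, 525 and 423 CPM. The lowest young sample was above the highest aged sample. The mean fell from 803 ± 90.5 CPM to 448 ± 67.5 CPM, for a log2 fold change of -0.84 (standard error 0.18, 95% interval -1.24 to -0.44, edgeR adjusted p = 0.0160). Without young B, young C or aged C the adjusted p in edgeR was 0.0535, 0.0549 and 0.0747. The annotated gene shares 1516 bases with Ctsa on the other strand, which was at a mean of 977 CPM and whose log2 fold change was -0.25 (edgeR adjusted p = 0.328). Whether the counting used strand is not stated, so reads in the shared bases cannot be assigned to either gene with certainty.

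Scd2 encodes a stearoyl-CoA desaturase, an enzyme that makes monounsaturated fatty acids. It lies on the plus strand at chr19:44293674-44306865. Levels were 17.4, 19.4 and 16.0 CPM in young samples A, B and C and 11.3, 6.94 and 11.0 CPM in aged samples A, B and C. The groups did not overlap, and aged sample B, the sample with the highest sums of keratinocyte and fibroblast markers, was the lowest. The mean fell from 17.6 ± 1.70 CPM to 9.74 ± 2.43 CPM, for a log2 fold change of -0.85 (standard error 0.23, 95% interval -1.36 to -0.34, edgeR adjusted p = 0.0317). The call was lost in edgeR without young B (adjusted p = 0.102), young C (0.0936), aged B (0.0793) or aged C (0.0753), and the fold change without aged B was -0.65. Of the other desaturases, Scd1 was near the limit of the libraries at 1.26 ± 0.567 CPM in the young and 0.949 ± 0.282 CPM in the aged samples.

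Lpcat3, the one gene of the 10 that rose, encodes the acyltransferase that places polyunsaturated fatty acids into membrane phospholipids. It lies on the plus strand at chr6:124663027-124704419 and was at 39.7, 38.8 and 32.6 CPM in young samples A, B and C. Aged samples A, B and C held 59.4, 47.7 and 53.7 CPM, all above the highest young sample. The mean rose from 37.0 ± 3.89 CPM to 53.6 ± 5.85 CPM, for a log2 fold change of 0.53 (standard error 0.17, 95% interval 0.17 to 0.90), and its edgeR adjusted p of 0.0488 lay just under the threshold. Of the 6 fits that left out 1 sample, only that without young A kept the call (edgeR adjusted p = 0.0461), and the adjusted p was 0.0974 without young B, 0.191 without young C, 0.119 without aged A, 0.0573 without aged B and 0.136 without aged C. In edgeR the call was also lost with the set letters as a replicate block (adjusted p = 0.0571) and with upper-quartile factors (0.0802). It was lost too with libraries scaled by their totals alone (0.189, log2 fold change 0.35) and with no filter on low counts (0.0634). DESeq2 (0.0316), limma-voom (0.0133), edgeR with DESeq2 size factors (0.0476) and edgeR with at least 10 counts in every sample (0.0481) kept it. The annotated gene shares 335 bases with Emg1 on the other strand, which was at a mean of 47.3 CPM (log2 fold change -0.27, edgeR adjusted p = 0.278), with the same uncertainty of strand as for Pltp. Of the related acyltransferases, Lpcat1 fell from 10.8 ± 1.51 to 6.38 ± 0.310 CPM (log2 fold change -0.76, edgeR adjusted p = 0.0371), a call kept only without young A (0.0395) among those 6 fits, where the others gave 0.0772 (aged B), 0.0793 (aged A), 0.0995 (young C), 0.107 (aged C) and 0.117 (young B). Lpcat2 was at 123 ± 4.39 CPM in the young and 132 ± 56.9 CPM in the aged samples, and Lpcat4 at 8.94 ± 1.60 and 7.52 ± 2.20 CPM, with neither called.

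**Figure D2:**
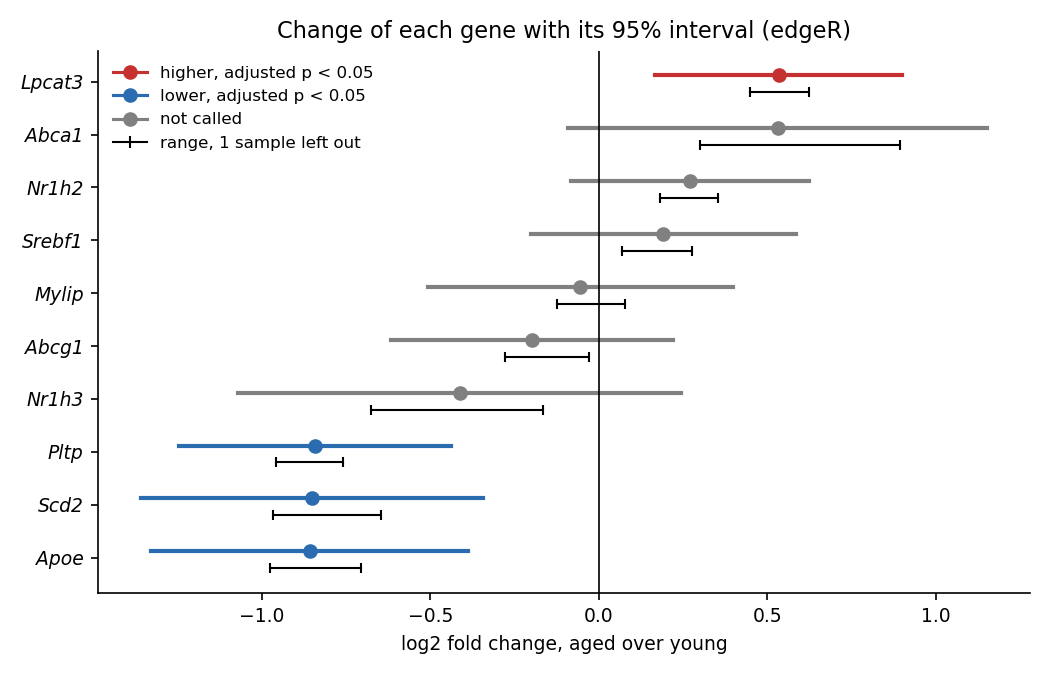
Log2 fold change of each of the 10 genes, aged over young, from edgeR. Coloured or grey lines are 95% intervals and the thin black lines below them the range of the estimate over the 6 leave-one-out fits. The intervals of Apoe, Pltp, Scd2 and Lpcat3 do not reach 0, and the estimate of Mylip lies on both sides of 0 when samples are left out.

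Abca1 passes cholesterol and phospholipids to lipid-poor apolipoproteins and lies on the minus strand at chr4:53030787-53159896. Its levels were 320, 143 and 204 CPM in young samples A, B and C and 409, 282 and 274 CPM in aged samples A, B and C. Young sample A lay above aged samples B and C, so the groups overlapped. The means were 223 ± 89.7 and 322 ± 75.7 CPM, and the log2 fold change was 0.53 (standard error 0.28, 95% interval -0.09 to 1.15, edgeR adjusted p = 0.208). The estimate was close to that of Lpcat3, but with an interval that included 0. Without young A it was 0.89 and passed the test (edgeR adjusted p = 0.0276), and in the other 5 such fits it lay between 0.30 and 0.64 without a call. The highest level of each age was in set A. With the set letters as a replicate block the estimate was 0.58 (standard error 0.18, edgeR adjusted p = 0.0609).

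Abcg1, on the plus strand at chr17:31057675-31117989, encodes the transporter that sends cholesterol to mature high-density lipoprotein. It was at 29.5, 21.6 and 21.6 CPM in young samples A, B and C and at 23.5, 20.1 and 19.8 CPM in aged samples A, B and C. The groups overlapped, and young sample A was the highest of the 6. The log2 fold change was -0.20 (standard error 0.19, 95% interval -0.62 to 0.22, edgeR adjusted p = 0.487), and it was -0.03 without young A.

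The transporters and their acceptor were also compared within each sample, as ratios of CPM per kb that do not depend on the scaling of the libraries. These 4 ratios were chosen after the levels had been seen. Abcg1 over Abca1 was 0.139, 0.226 and 0.159 in young samples A, B and C and 0.0862, 0.107 and 0.109 in aged samples A, B and C. The aged ratios were all lower, by -0.77 on the log2 scale. The ratio of Apoe to Abca1 was 237, 592 and 368 in young samples A, B and C and 83.0, 162 and 184 in aged samples A, B and C, a log2 difference of -1.46 with no overlap. In a 2-sided exact permutation test each of these 2 ratios had p = 0.1, the smallest that 3 against 3 samples allow, and 0.2 after Benjamini-Hochberg adjustment over the 4 ratios. Leaving out each sample in turn kept the difference between -0.92 and -0.57 for Abcg1 over Abca1 and between -1.79 and -1.11 for Apoe over Abca1. Pltp over Apoe, in contrast, ran from 0.0406 to 0.0496 in young and from 0.0365 to 0.0510 in aged samples, a log2 difference of 0.03 (exact permutation p = 0.8, adjusted 0.8) that ran from -0.06 without aged A to 0.19 without aged C.

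**Figure D3:**
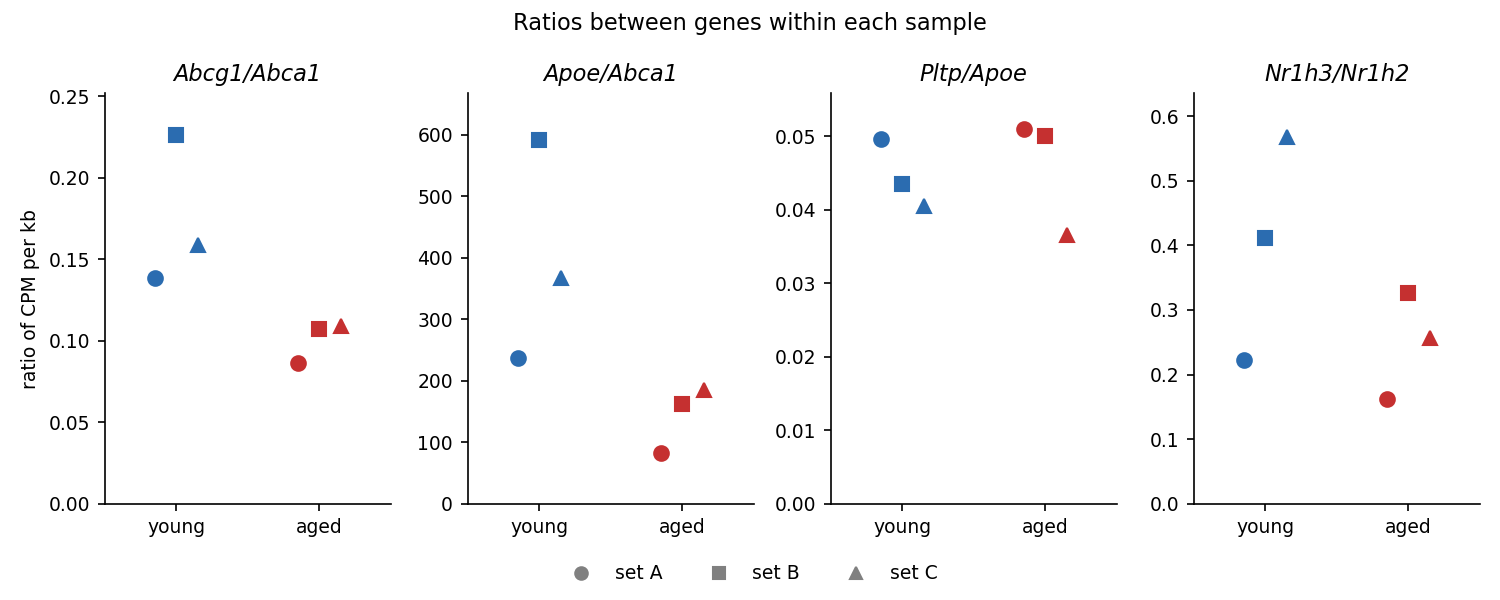
Ratios of CPM per kb between pairs of the 10 genes in each sample, on axes that start at 0. Blue points are young and red points aged samples, and shapes mark the sets A, B and C. Abcg1 over Abca1 and Apoe over Abca1 are lower in all 3 aged samples, whereas Pltp over Apoe and Nr1h3 over Nr1h2 overlap.

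Neither receptor was called. Nr1h2, on the minus strand at chr7:44549616-44553952, held 65.9, 64.9 and 57.0 CPM in young samples A, B and C and 85.0, 74.3 and 67.4 CPM in aged samples A, B and C. All aged samples lay above all young samples, but by a margin that was small beside the spread, and the log2 fold change was 0.27 (standard error 0.16, 95% interval -0.08 to 0.62, edgeR adjusted p = 0.252). Nr1h3, on the minus strand at chr2:91184061-91202835, was at 15.7, 28.6 and 34.7 CPM in young samples A, B and C and at 14.8, 26.0 and 18.5 CPM in aged samples A, B and C. The lowest value of each age was in set A, and the ranges overlapped widely. The log2 fold change of Nr1h3 was -0.41 (standard error 0.30, 95% interval -1.07 to 0.25, edgeR adjusted p = 0.352). Leaving out each sample in turn, this estimate ran from -0.68 without young A to -0.16 without young C, without a call. Per kb, Nr1h3 was at 0.223, 0.411 and 0.568 of Nr1h2 in young samples A, B and C and at 0.162, 0.326 and 0.256 in aged samples A, B and C, which overlap (log2 difference -0.65, exact permutation p = 0.3, adjusted 0.4), and leaving out each sample in turn the difference ran from -1.02 without young A to -0.34 without young C.

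Srebf1 encodes the transcription factor SREBP-1, which drives fatty acid synthesis, and lies on the minus strand at chr11:60199089-60222582. It was at 23.8, 21.9 and 20.1 CPM in young samples A, B and C and at 29.3, 22.5 and 23.5 CPM in aged samples A, B and C. These ranges overlapped, and aged sample A was the highest. The log2 fold change was 0.19 (standard error 0.18, 95% interval -0.20 to 0.58, edgeR adjusted p = 0.473). This estimate was 0.07 without aged A, 0.12 with upper-quartile factors and 0.007 with libraries scaled by their totals alone. Srebf1 shares 110 bases with Rai1 on the other strand, which was at a mean of 1.45 CPM, with the same uncertainty of strand as for Pltp. The proteases that release SREBP-1 from its membrane anchor were not called either, with Mbtps1 at 15.5 ± 1.19 CPM in the young and 13.9 ± 3.34 CPM in the aged samples and Mbtps2 at 4.52 ± 0.765 and 3.60 ± 0.816 CPM.

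Mylip, on the plus strand at chr13:45389742-45412023, encodes the ubiquitin ligase (IDOL) that marks lipoprotein receptors for degradation. It was at 13.1, 15.1 and 12.4 CPM in young samples A, B and C and at 14.4, 14.1 and 10.7 CPM in aged samples A, B and C. The ages were interleaved, and the log2 fold change of -0.05 (standard error 0.20, 95% interval -0.51 to 0.40, edgeR adjusted p = 0.876) became 0.04 without young B and 0.077 without aged C. Among receptors on which it acts, Lrp8 was at 2.35 ± 0.574 CPM in the young and 4.25 ± 0.657 CPM in the aged samples (edgeR adjusted p = 0.0844), and Vldlr was at 0.178 ± 0.254 and 0.0618 ± 0.107 CPM, too low for the test.

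Per kb of exon, Apoe stood far above the other 9 genes in both ages, at 7661 ± 537 CPM per kb in young and 4228 ± 830 CPM per kb in aged samples. Pltp followed at 341 ± 38.5 and 190 ± 28.7 CPM per kb. Next came Nr1h2 (31.2 ± 2.43 in young, 37.7 ± 4.44 in aged), Abca1 (21.7 ± 8.75 and 31.3 ± 7.38) and Lpcat3 (16.2 ± 1.70 and 23.5 ± 2.57), and in neither age did these neighbours differ by more than their summed SDs. Nr1h3 had 12.2 ± 4.51 and 9.19 ± 2.66 CPM per kb, within the spread of Lpcat3 in young and of Srebf1 in aged samples. The lowest levels per kb belonged to Srebf1 (5.11 ± 0.437 and 5.84 ± 0.850), Mylip (4.19 ± 0.437 and 4.04 ± 0.638), Abcg1 (3.55 ± 0.671 and 3.10 ± 0.296) and Scd2 (3.22 ± 0.311 and 1.79 ± 0.445). In young samples Abcg1 lay within the summed SDs of both Mylip and Scd2, whereas in aged samples Scd2 stood below Abcg1 by more than the summed SDs. The order of the 10 genes was the same in both ages. The spread between samples of one age was widest for Abca1 and Nr1h3 in young samples, with coefficients of variation of 40.3% and 36.8%, and for Apoe they were 7.01% in young and 19.6% in aged samples.

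For each of the 10 genes, the 2 genes with the most similar profile were sought among 6578 tested genes with a mean of at least 10 CPM, by the root mean square difference of centred log2 CPM over the 6 samples. Those of the transporters, of Apoe and of Srebf1 are named. The most similar to Abca1 were Sipa1l2 and Metap1, with differences of 0.09 and 0.11. Those of Abcg1 were Wdr20 and Tmem192 (0.06 and 0.07), those of Apoe were Rabggtb and Mad2l2 (0.08 and 0.08), and those of Srebf1 were Laptm5 and Zfp62 (0.01 and 0.05). None of these 8 genes is on the lists of sterol genes used here.

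LXR binds with its partner to a DR4 element, a pair of hexamers spaced by 4 bases. The 250 bases upstream of annotated transcript starts were searched on both strands in the RefSeq promoter table (GRCm38.p6), in which 8 of the 10 genes had 13 windows, with Scd2 and Abcg1 not matched. The strict letters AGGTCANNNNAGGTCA occurred in 5 of 32851 windows (0.0152%) and in none of the 13. A looser form, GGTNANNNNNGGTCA, which keeps the spacing but frees the first base of each hexamer and a further base of the first, occurred in 58 windows (0.177%), and 2 of these belonged to the 10 genes, 1 each to Abca1 and Srebf1. Both windows are shown because they hold the only such matches among the 13, with the match in capitals. The Abca1 window is chr4:53159896-53160145, directly before the annotated gene, and the Srebf1 window is chr11:60210472-60210721, within an intron of the longer Srebf1 transcripts. Both are read 5′ to 3′ on the minus strand, and the motif lies on the opposite strand of each, so that the capitals are its reverse complement.
Abca1: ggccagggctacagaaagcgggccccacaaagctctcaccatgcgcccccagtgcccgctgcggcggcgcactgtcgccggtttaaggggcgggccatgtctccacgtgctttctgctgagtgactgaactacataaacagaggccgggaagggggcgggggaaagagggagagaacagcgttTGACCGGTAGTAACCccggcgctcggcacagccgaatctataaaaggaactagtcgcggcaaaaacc
Srebf1: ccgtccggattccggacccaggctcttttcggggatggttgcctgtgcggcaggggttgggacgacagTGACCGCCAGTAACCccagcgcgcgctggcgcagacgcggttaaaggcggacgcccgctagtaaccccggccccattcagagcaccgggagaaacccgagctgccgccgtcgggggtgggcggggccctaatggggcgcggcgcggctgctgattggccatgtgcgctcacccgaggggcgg
In Abca1 the match begins 67 bases and ends 53 bases before the transcript start, and in Srebf1 it begins 182 and ends 168 bases before it. Read on the strand of the motif, the matches are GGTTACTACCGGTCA in Abca1 and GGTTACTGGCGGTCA in Srebf1, which differ at 2 of 15 positions. Neither gene was called, with 95% intervals of the log2 fold change from -0.09 to 1.15 and from -0.20 to 0.58. A match of letters is a description and says nothing about binding in these cells. The 10 genes were chosen for their link to LXR, so 2 matches beside 0.177% of all windows are no test of enrichment.

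Of 20 other genes known as LXR targets in some tissue, 17 were in the table and 14 were tested. In edgeR 2 fell and 0 rose, beside 7.97% lower and 9.73% higher over all tested genes, and 7 of the 14 had an unadjusted p under 0.05, beside 34.5% of all tested genes. By DESeq2 2 fell and 1 rose, beside 9.16% and 12.4% of all genes, and by limma-voom 3 fell and 1 rose, beside 14.4% and 16.3%. The median log2 fold change was -0.51, and -0.31 without young B. Lpl, the lipoprotein lipase, was at 356, 307 and 282 CPM in young samples A, B and C and at 67.1, 105 and 64.7 CPM in aged samples A, B and C. All aged samples were far below all young samples, and Lpl fell by 2.00 on the log2 scale (standard error 0.22, edgeR adjusted p = 0.00136), with the call kept in each of the 6 fits that left out 1 sample. It was the one gene of this list with a called fall of more than 2-fold, a call made for 4.2% of all tested genes. Npc2, which carries cholesterol out of lysosomes and was the most abundant of the list, fell from 1164 ± 172 to 725 ± 65.8 CPM (log2 fold change -0.68, edgeR adjusted p = 0.0308). That call was kept without young A (0.0147) and lost without young B (0.0953), young C (0.127), aged A (0.0605), aged B (0.0775) or aged C (0.0904).

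Partners and coregulators of the receptors numbered 15 in the table out of 17, and all 15 were tested. In edgeR 2 rose and 0 fell (9.73% and 7.97% over all tested genes), with 5 of 15 at an unadjusted p under 0.05 (34.5% over all tested genes) and 0 falls by DESeq2 or limma-voom (9.16% and 14.4% of all genes). The number that rose was 1 with libraries scaled by their totals alone and 1 with the set letters as a replicate block (4.93% and 10.1% of all genes), and the median was 0.36, or 0.18 with the totals alone. Ncoa3, a coactivator, rose from 20.1 ± 3.84 to 38.1 ± 6.35 CPM (log2 fold change 0.92, edgeR adjusted p = 0.0172), and Crebbp, a histone acetyltransferase, from 12.6 ± 0.814 to 20.5 ± 3.77 CPM (0.71, adjusted p = 0.0351). Neither was called without young B (0.0542 and 0.0943), young C (0.0627 and 0.132) or aged C (0.0694 and 0.107), and Crebbp was also lost without aged B (0.0999). The rise lost with the totals alone and with the replicate block was that of Crebbp. Ncor1, the corepressor and the most abundant of the list, was at 60.0 ± 6.09 CPM in the young and 71.2 ± 5.42 CPM in the aged samples and was not called (edgeR adjusted p = 0.292).

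Genes of sterol storage, transport and oxysterol production numbered 18 in the table out of 20, of which 15 were tested. Here 4 of 15 rose and 0 fell in edgeR (9.73% and 7.97% over all tested genes), with 8 at an unadjusted p under 0.05 (34.5% over all tested genes), and 0 fell by DESeq2 (9.16% of all genes) and 3 by limma-voom (14.4%). The median was 0.27, but 0.10 with the totals alone, 0.07 by limma-voom, 0.11 with at least 10 counts in every sample, -0.05 with the replicate block and 0.10 to 0.11 without young A, aged A or aged B. Osbp, an oxysterol-binding transfer protein, rose from 16.0 ± 2.66 to 42.4 ± 10.3 CPM (log2 fold change 1.41, edgeR adjusted p = 0.00590), and this call was kept in all 6 fits that left out 1 sample. Soat1, the enzyme that esterifies cholesterol for storage, was at 142, 97.9 and 131 CPM in young samples A, B and C and at 220, 225 and 225 CPM in aged samples A, B and C. The aged samples lay close together and above all young samples, and Soat1 rose by 0.85 (standard error 0.18, edgeR adjusted p = 0.0143), a call lost without young C (0.0698) or aged C (0.0543). Plin2, which coats lipid droplets and was the most abundant of the list, rose from 3000 ± 551 to 5379 ± 350 CPM (log2 fold change 0.84, edgeR adjusted p = 0.0210) and was not called without young B (0.0784), young C (0.0862) or aged C (0.0729).

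Sterol synthesis and uptake genes numbered 18 in the table out of 19, all of them tested. Of these 4 rose and 0 fell in edgeR (9.73% and 7.97% over all tested genes), with 8 of 18 at an unadjusted p under 0.05 (34.5% over all tested genes), and 0 fell by DESeq2 (9.16% of all genes) and 2 by limma-voom (14.4%). The median was 0.29, but 0.12 with the totals alone, 0.17 without aged B and 0.47 without aged A. Insig1, which holds SREBP proteins in the endoplasmic reticulum, was at 27.9, 24.3 and 21.5 CPM in young samples A, B and C and at 55.1, 45.2 and 43.2 CPM in aged samples A, B and C. The groups were well apart, and Insig1 rose by 0.96 on the log2 scale (standard error 0.18, edgeR adjusted p = 0.00975). Hmgcs1, an early enzyme of cholesterol synthesis, rose from 12.5 ± 2.97 to 24.1 ± 3.39 CPM (0.94, edgeR adjusted p = 0.0195), and Cyp51, a later enzyme of the same pathway, from 21.6 ± 4.60 to 38.4 ± 8.21 CPM (0.83, adjusted p = 0.0314). Srebf2, the transcription factor that drives cholesterol synthesis and the most abundant of the list, rose from 41.1 ± 4.90 to 61.6 ± 3.77 CPM (log2 fold change 0.58, edgeR adjusted p = 0.0331). None of the 4 was called without young C, where Insig1, Hmgcs1, Cyp51 and Srebf2 had adjusted p of 0.0648, 0.0950, 0.0788 and 0.127. Insig1 was called in the other 5 such fits. Hmgcs1, Cyp51 and Srebf2 were also lost without young B (0.0656, 0.0950 and 0.0970) and without aged C (0.0665, 0.102 and 0.103), and Cyp51 and Srebf2 without aged B (0.0762 and 0.0804). With libraries scaled by their totals alone, 1 gene of the list was called higher (4.93% of all genes).

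**Figure D4:**
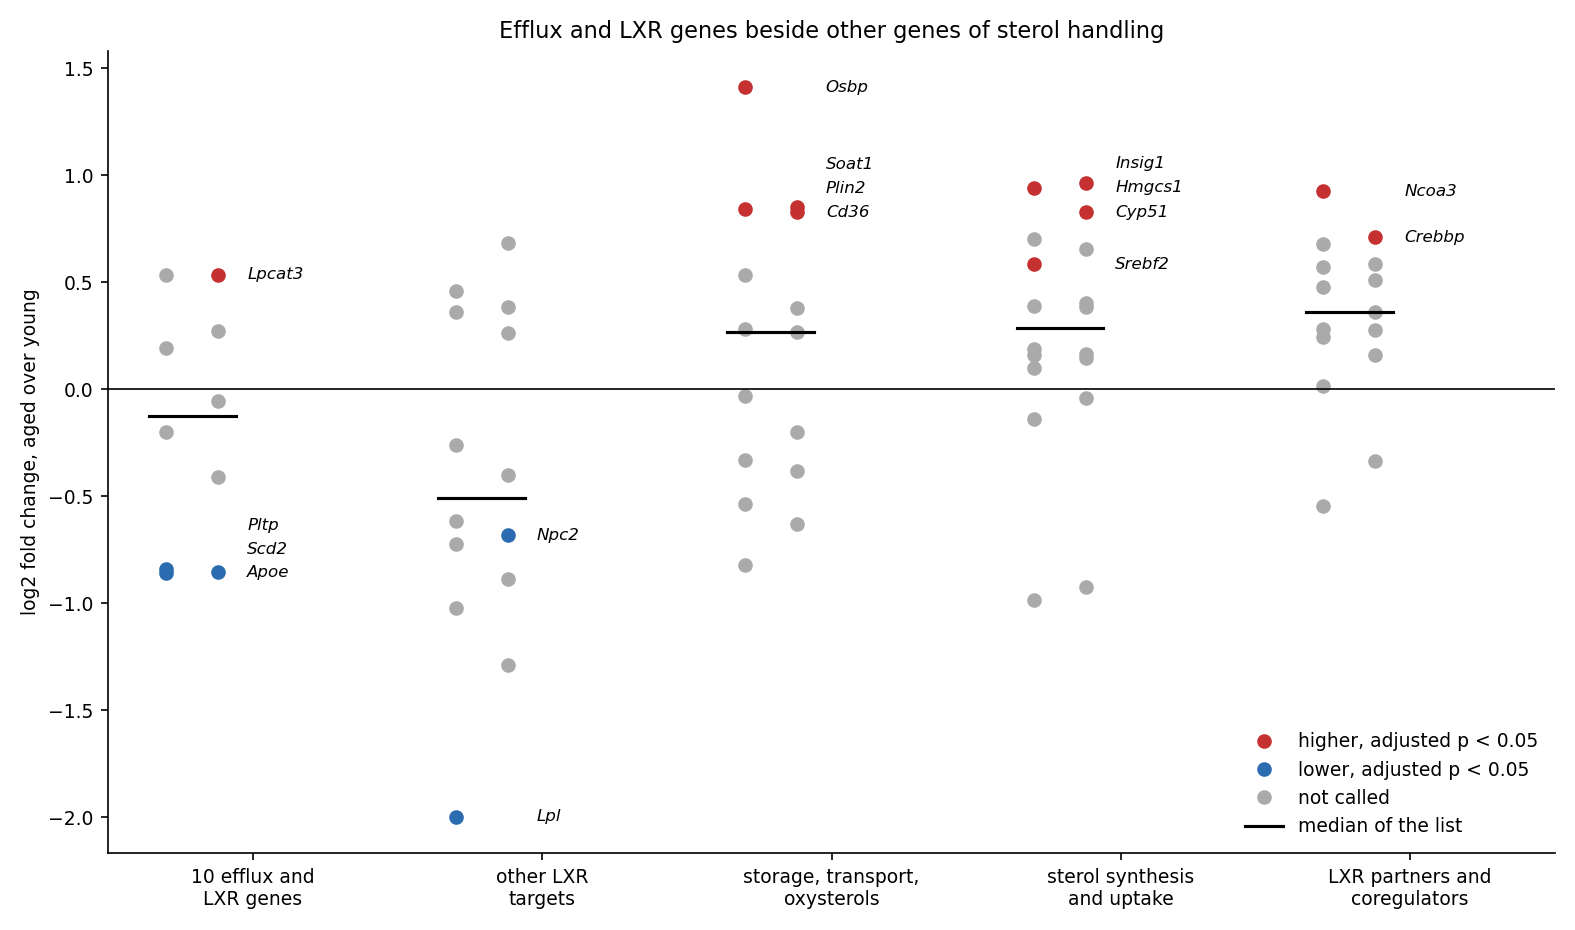
Log2 fold changes, aged over young, of the 10 efflux and LXR genes and of 4 lists of other sterol genes. Each point is a gene tested in edgeR, coloured where called (adjusted p under 0.05), with called genes named, and black bars are list medians. Called falls lie among the 10 genes (Apoe, Pltp and Scd2) and the other LXR targets (Lpl at -2.00, Npc2 at -0.68). Lpcat3 of the 10 genes rose, and in edgeR the called genes of the other 3 lists all rose. By limma-voom 3 storage and transport genes and 2 synthesis and uptake genes were called lower (14.4% of all tested genes).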

How the data were processed

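Bulk RNA-sequencing libraries (SMART-Seq v4, paired-end reads of 150 bp) of sorted Day 3 wound macrophages came from 3 young and 3 aged samples. The authors used STAR 2.7.3a for alignment to mm10 and quantified Ensembl transcripts (release 102) in Partek Flow, and the expected counts they deposited are not normalised. Between 26.5% and 29.6% of values per sample were not whole (tolerance 0.001), and values were rounded. A second deposited table, with values the authors normalised and their own fold changes and p-values, was not used. Use of strand in counting is not given in the sources used here.

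edgeR 4.0.16 (R 4.3.3) was used with TMM scaling, filterByExpr by age, and aged and young samples were compared by its quasi-likelihood test. The design had assumed raw counts. log2 CPM used a prior count of 2. Exon lengths came from GENCODE M21. DESeq2 1.42.0, limma-voom (limma 3.58.1) and the other alternatives of the closing section were run, and code was tested on simulated data. All 10 genes were named. Of each list, the called genes with the 3 largest changes in each direction and the most abundant gene were named, with Scd1 and the relatives by their means. A gene of the synthesis and uptake list is not reported here and was left out of that list. The genes and lists were chosen with earlier results of these data known. Plots were drawn with matplotlib 3.10.9.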

Additional observations from a re-analysis of the deposited data

How the results depend on the processing

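Among the 10 genes, 1 was called higher and 3 lower. The number higher was 0 with upper-quartile factors, with library totals alone, with no filter on low counts, with the replicate block and with a threshold of more than 2-fold, and 0 to 2 when each sample was left out in turn. The number lower was 0 with the 2-fold threshold and 0 to 3 when samples were left out, with 0 without young B, young C or aged C, and it was 3 in the other settings that kept all samples. Lpcat3 was the gene lost, with edgeR adjusted p of 0.0802, 0.189, 0.0634 and 0.0571 in the first 4 of those settings, while DESeq2 and limma-voom called it (0.0316 and 0.0133). The log2 fold change of Mylip ran from -0.13 to 0.077 over the fits that left out a sample, above 0 without young B (0.04) and without aged C (0.077).

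Over all tested genes, 1156 were called higher and 947 lower. These became 1933 and 1713 with limma-voom, 585 and 1553 with library totals alone, and 545 and 499 with the 2-fold threshold. They were 925 and 1195 with upper-quartile factors, 1022 and 808 with no filter on low counts, and 1474 and 1091 with DESeq2. With DESeq2 size factors in edgeR they were 1192 and 914, and with at least 10 counts in every sample 1133 and 975. When each sample was left out in turn they ran from 151 to 1574 and from 67 to 1128, with both minima without young C. Library totals alone shifted the median log2 fold change by -0.18. The median of the storage and transport genes was 0.27, and -0.05 with the replicate block. The set letters were tested as a replicate block (1202 higher and 912 lower). Same-letter samples deviated together with correlations of 0.18, -0.02 and 0.11, and samples of different letters with -0.22 to 0.14. The labels do not say what the letters mark, and these correlations cannot settle it. The letters were treated as names in the main fit. With a prior count of 0.5, the second most similar gene to Srebf1 became Becn1. The cause of these differences was not tested. Totals of 15270103 to 17927483 counts leave genes near 1 CPM, such as Scd1, resting on few counts.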
